A study of Mus musculus with 2 samples.

Results

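Genes of sugar breakdown and of the response to low oxygen were described in RAW264.7, a cell line of mouse macrophages. The members were 35 gene names, taken by name from the deposited gene table, where they fill 36 of 24034 entries because Aldoa is listed under 2 identifiers. They comprise 17 genes of glycolysis, 4 of pyruvate use, 6 of the pentose phosphate pathway and 8 of the hypoxia response. Poly(A) RNA was sequenced in 2 libraries of cells grown in DMEM with serum, 1 labelled SFRS8 siRNA and 1 labelled negative control, both with a 5 d mark in the title. The mouse gene behind the name SFRS8 is Sfswap, which codes for a splicing regulator. The control is called WT in its title and negative control in its treatment label, and the labels do not say what siRNA, if any, it received. With 1 library a group there is no replicate check and no test between conditions. Values are given for the siRNA-labelled library first and for the control second.

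Glycolysis splits glucose into pyruvate, with a preparatory phase that consumes ATP and a payoff phase that returns it, and macrophages raise it when they are activated. The pentose phosphate pathway branches off at glucose 6-phosphate, giving NADPH for the oxidative burst and for antioxidant defence, and ribose for nucleotides. Hypoxia-inducible factor (HIF) is a transcription factor whose alpha subunit is marked for destruction by prolyl hydroxylases when oxygen is plentiful. When it is stable, it switches on many glycolytic genes, and also those of pyruvate dehydrogenase kinase and lactate dehydrogenase A.

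Deposited counts summed to 55411201 (siRNA-labelled) and 54847367 (control), where about 4 counts correspond to 1 read pair. The siRNA target Sfswap was not the lower in its library, at 3.38 against 2.92 FPKM, a level scaled to transcript length and library depth. Macrophage markers were present in both libraries, with all 11 in the table detected, and Lyz2 was the most abundant at 13998 against 15652 FPKM. Their summed counts were lower in the siRNA-labelled library, at 1377563 against 1523143, and 5 of the 11 were higher there. Heart muscle markers were higher in the siRNA-labelled library for 30 of 30 genes. Their summed counts were 33783 against 12974, of which Atp2a2, at 43.6 against 31.7 FPKM, held 16251 and 11701. The 25 of these markers that stayed below 1 FPKM in the control held 15059 against 402 counts, and Actc1, Myl2 and Myl3 had 0 there. Red blood cell markers held 423 against 6 counts and fibroblast markers 573 against 161. Vascular endothelium markers held 856 against 731 counts, and fast skeletal muscle markers 1148 against 1251. Those of these 2 lists that stayed below 1 FPKM in the control held 148 against 51 and 112 against 52 counts. Subsets chosen for a low control value, here and for heart muscle, by that choice favour higher counts in the other library. In bulk RNA, more cells of a type and more RNA per cell cannot be told apart. The level of Sfswap thus shows no knockdown in the siRNA-labelled library. Over the full lists, markers foreign to a macrophage line, namely those of red blood cells and fibroblasts, held more counts there. The full lists of vascular endothelium and fast skeletal muscle differed less and in opposite directions. Each difference below is therefore one between these libraries as labelled. Whether RNA of other cells or a mixed-up label had a part in the differences was not tested.

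Several of the most abundant glycolytic messages have near-identical processed copies elsewhere in the genome, and a read that fits both cannot be placed with certainty. A copy was taken as another gene of the table that matched at least 50% of the member's coding sequence at 95% identity or more. By this rule 11 members had copies, and Gapdh had 72. The next sequences show how little separates a parent from a copy. They are matched stretches of 90 bases in Gapdh (exon 4, chr6:125162951-125163040, minus strand), in its most counted copy Gm13394 (chr2:28934199-28934288, minus strand), in Eno1 (exon 8, chr4:150246570-150246659, plus strand) and in its copy Gm4735 (chr2:80837808-80837897, plus strand), from GENCODE vM21 transcripts on GRCm38. Capitals mark the base that differs within each pair.

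Gapdh: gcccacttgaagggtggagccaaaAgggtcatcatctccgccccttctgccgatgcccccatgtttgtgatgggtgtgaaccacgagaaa

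Gm13394: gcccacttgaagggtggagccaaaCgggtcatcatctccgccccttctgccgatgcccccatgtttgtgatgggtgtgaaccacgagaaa

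Eno1: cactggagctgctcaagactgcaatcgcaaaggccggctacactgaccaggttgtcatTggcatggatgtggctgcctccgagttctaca

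Gm4735: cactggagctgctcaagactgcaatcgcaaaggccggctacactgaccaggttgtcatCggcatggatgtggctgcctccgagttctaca

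Counted from the first base of the coding sequence, the Gapdh difference is A346C, and it was the 1 mismatch over all 999 coding bases. Against Gm7336, another copy, Gapdh had 0 mismatches. The Eno1 difference shown is T726C, 1 of 5 mismatches over 1302 coding bases against Gm4735. Eno1b, a retrotransposed enolase gene on chromosome 18, had 8 mismatches from Eno1 over the same 1302 bases. Ldha and Ldhb, the lactate dehydrogenase genes, were by contrast 73.5% identical over 985 aligned coding bases.

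Of the 35 members, 34 reached a mean of 1 FPKM, the minimum for being measured here. The exception was Egln3, an oxygen-sensing prolyl hydroxylase, with 0 counts in both libraries, where 3 read pairs (12 counts) could go unseen. The measured members made up 1.31% of all FPKM in the first library and 1.56% in the second. A difference is taken on log2(FPKM + 1), control subtracted from siRNA-labelled, a scale that understates it for low genes. At least 2-fold higher on that scale was 1 of 34 members, Ldhb, against 1.18% of all 10214 measured genes. Ldhb reached the minimum mean only through the siRNA-labelled library (3.37 against 0.19 FPKM), so the filter itself favoured a high difference. The same filter was used for all genes. At least 2-fold lower was also 1 of 34, Eno1b, against 0.783% of all genes. At 1.5-fold the same numbers of members, 1 higher and 1 lower, were past the limit, against 4.91% and 2.18% of all genes. Differences above 0 were found for 16 of 34 members, or 47.1%, against 66.9% of all genes. They were found for 13 of the 20 members that have no copy and overlap no other gene on the same strand. In all, 11 of 34 exceeded the median of all genes, against 50% by construction. The median difference was -0.061 over the members and 0.11 over all genes, and it was 0.064 over those 20 members.

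**Figure D1:**
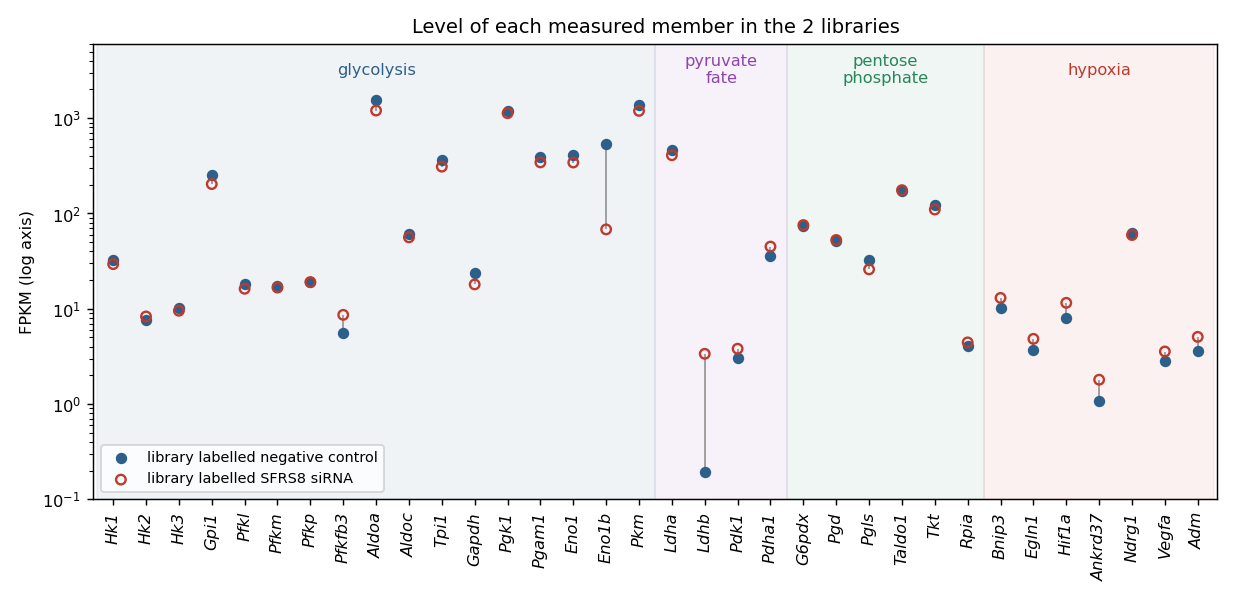
Level of the 34 measured members in FPKM (log axis) in the library labelled negative control (filled) and the library labelled SFRS8 siRNA (open), 1 library each, grouped by role. Control levels run from 0.19 FPKM for Ldhb to 1563 FPKM for Aldoa, and the wide gaps between the libraries are at Eno1b and Ldhb.

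The median difference lay below 0 for glycolysis and above 0 for hypoxia. The glycolysis members had a median of -0.14, with 3 of 17 above 0, and the hypoxia members a median of 0.34, with 6 of 7 measured members above 0. The pentose phosphate members had a median of 0.025 with 4 of 6 above 0. Over all genes, 66.9% were above 0. The 4 genes of pyruvate use went from -0.19 to 1.87. A ratio of counts is scaled to the library totals and carries an exact 95% interval, which covers counting error only.

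**Figure D2:**
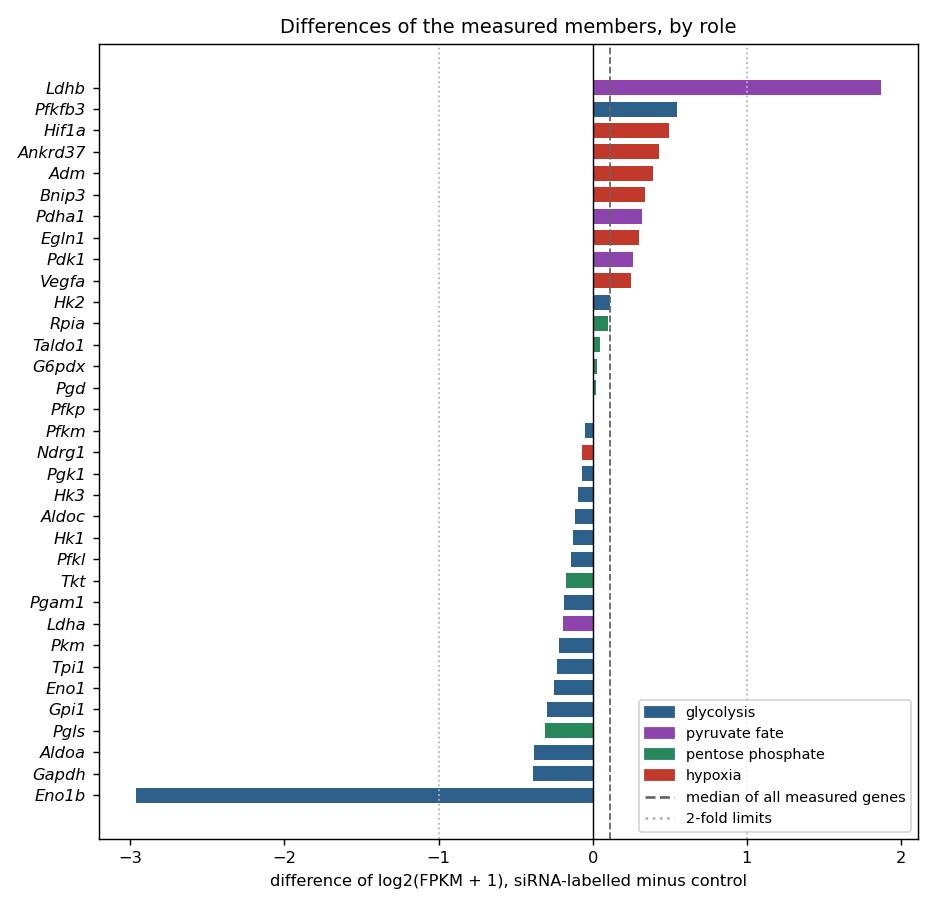
Bars give the log2(FPKM + 1) difference of the 34 measured members, control subtracted from siRNA-labelled, coloured by role, with the median of all measured genes (0.11, dashed) and the 2-fold limits (dotted). Hypoxia genes other than Ndrg1 lie to the right of the dashed line and most glycolysis genes to the left of 0, with Eno1b at -2.96 and Ldhb at 1.87 as the ends.

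The first steps of glycolysis showed small differences. Hexokinases trap glucose in the cell by phosphorylating it. Hk1, the widely expressed form, stood at 29.4 against 32.2 FPKM and Hk3 at 9.54 against 10.3 FPKM. Hk2, the inducible form and a HIF target, stood at 8.31 against 7.60 FPKM. Hk1 thus held 62.2% of hexokinase FPKM in the siRNA-labelled library and 64.3% in the control, and Hk2 17.6% and 15.2%. The ratio of counts of Hk1 was 0.91 (0.87 to 0.96), while the intervals of Hk2 (0.98 to 1.21) and Hk3 (0.82 to 1.05) included 1.

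Gpi1, which turns glucose 6-phosphate into fructose 6-phosphate, was lower, at 203 against 250 FPKM with a ratio of counts of 0.81 (0.80 to 0.83). Phosphofructokinase, the committed step, was made of 3 subunit genes at nearly equal level. Pfkl (liver form) stood at 16.2 against 18.0 FPKM, Pfkm (muscle form) at 16.7 against 17.3 FPKM and Pfkp (platelet form) at 19.1 against 19.0 FPKM. Each held between 31.2% and 36.7% of the FPKM of the step, in both libraries. The muscle form held 32.1% against 31.9%.

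Pfkfb3 stood apart from the enzymes around it. It makes and breaks fructose 2,6-bisphosphate, the strongest activator of phosphofructokinase, and is itself a HIF target. Pfkfb3 (chromosome 2, 11471433 to 11554077, minus strand) stood at 8.63 against 5.58 FPKM, from 4009 against 2569 counts. Its difference of 0.55 exceeded that of 94.0% of all measured genes, and the ratio of counts was 1.54 (1.4 to 1.71). It had no copy by the rule above and no overlapping gene in the table on its strand.

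Aldolase and the enzymes below it, which handle the 3-carbon sugars, included the most abundant members and were all lower. Aldoa, the main aldolase (chromosome 7, 126795234 to 126800751, minus strand), stood at 1202 against 1563 FPKM, with a ratio of counts of 0.77 (0.76 to 0.78). Its second entry, an adjoining gene of the same name on the same strand, held 163 against 158 counts. Aldoc, the brain-type form, stood at 56.1 against 60.9 FPKM, so Aldoa held 95.5% and 96.2% of aldolase FPKM. Tpi1, which interconverts the products of aldolase, had 310 against 364 FPKM (ratio of counts 0.85, 0.83 to 0.87). Pgk1, the first ATP-forming enzyme, differed less, at 1127 against 1184 FPKM (0.95, 0.94 to 0.96). Pgam1, phosphoglycerate mutase, stood at 343 against 391.5 FPKM (0.88, 0.85 to 0.90). Pkm, pyruvate kinase and the last enzyme of the pathway, stood at 1193 against 1388 FPKM (0.86, 0.85 to 0.87), and a gene value does not separate its M1 and M2 isoforms. Gm49759, which overlaps Pkm on the same strand, had 2667 against 1744 counts, so it was higher where Pkm was lower. The copies of these genes held few of the counts of their families: up to 6.59% for Pgam1, 5.53% for Pgk1 and 1.26% for Pkm.

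Gapdh, a common reference gene, was listed at a level far below its neighbours in the pathway. The enzyme oxidises glyceraldehyde 3-phosphate and yields NADH. Its entry (chromosome 6, 125161715 to 125165773, minus strand) held 18.0 against 23.9 FPKM and 4569 against 6003 counts. Its 72 copies held 345454 against 412004 counts, which is 98.7% and 98.6% of the family. Summed over parent and copies, Gapdh came to 5467 against 6498 FPKM. The summed ratio of counts was 0.83 (0.82 to 0.84), against 0.75 (0.70 to 0.81) for the parent entry alone.

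The copies of Gapdh differed in direction. Gm13394 held 132420 against 137751 counts and Gm7336, identical in coding sequence to the parent, 57743 against 96714. In the other direction, Gm2606 held 39593 against 17395 counts and Gm12033 20911 against 15010. Of the 16 copies whose mean reached 1 FPKM, 3 were higher and 13 lower. Single entries of the family thus gave ratios on both sides of 1.

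Enolase is the next-to-last step. Its copy Eno1b was the lowest member, and its difference was the largest in size with a pseudocount of 1, whereas with a pseudocount of 0.1 that of Ldhb was larger (3.56 against -2.98), as it was on counts scaled to the library total (4.02 against -2.98). Eno1b (chromosome 18, 48045335 to 48048412, plus strand) stood at 68.1 against 538 FPKM and at 7837 against 61315 counts, a ratio of 0.13 (0.12 to 0.13). The parent Eno1 (chromosome 4, 150236721 to 150248879, plus strand) was also lower, at 342 against 407 FPKM and 112969 against 133095 counts (0.84, 0.83 to 0.85). Gm4735 held 42919 against 53287 counts and Gm5855 547 against 861. All 4 entries were thus lower in the siRNA-labelled library. Eno1 and Eno1b summed came to 410 against 945 FPKM, a difference of -1.2, or to a ratio of counts of 0.62 (0.61 to 0.62). The 2 scales differ because a count of the short Eno1b is worth more FPKM than a count of Eno1. All 4 entries summed had a ratio of counts of 0.65 (0.65 to 0.66), and without Eno1b the other 3 had 0.83 (0.82 to 0.84), close to the values of Gpi1 and Tpi1.

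**Figure D3:**
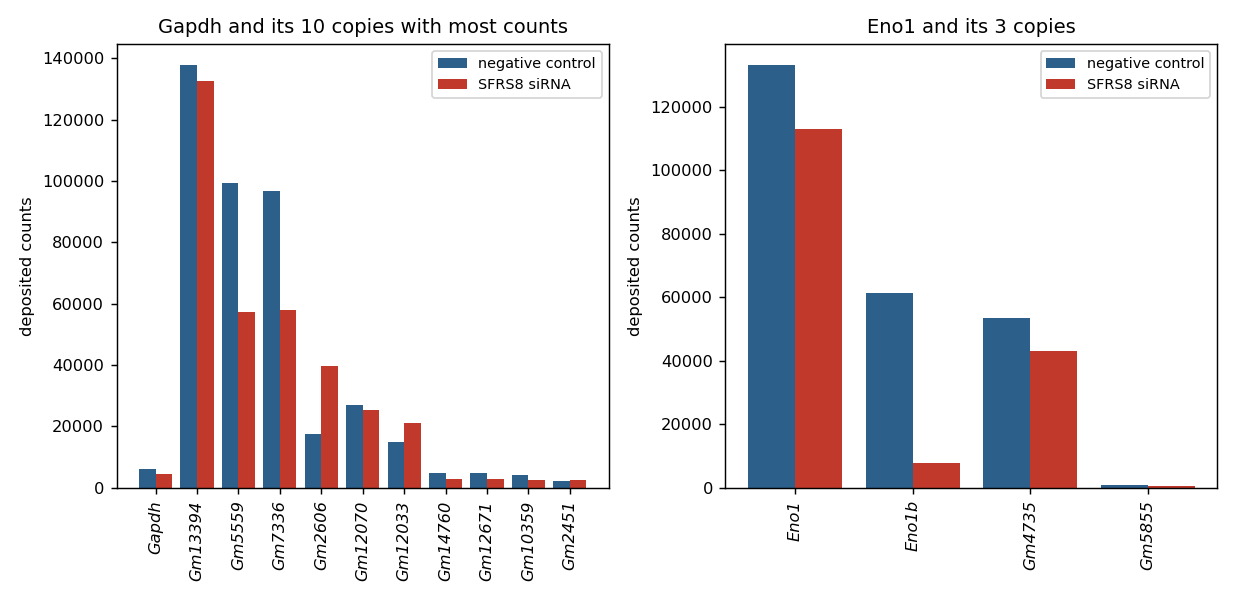
Deposited counts of Gapdh and its 10 copies with the most counts (left) and of Eno1 and its 3 copies (right) in the 2 libraries, 1 bar per library. Most counts of the Gapdh family lie on the copies, Gm2606 and Gm12033 are higher in the siRNA-labelled library while Gm5559 and Gm7336 are lower, and Eno1b stands at 61315 counts in the control against 7837.

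Among the 4 genes of pyruvate use, Ldha was lower and the other 3 were higher. Ldha, the main lactate dehydrogenase, which turns pyruvate into lactate, had 408 against 467 FPKM (ratio of counts 0.87, 0.86 to 0.89). Ldhb, the form that predominates in heart, stood at 3.37 against 0.19 FPKM, from 326 against 19 counts. Its ratio of counts was 17.0 with a wide interval of 6.68 to 51.3, since the control value rests on about 5 read pairs. Ldhb made up 0.82% of lactate dehydrogenase FPKM in the siRNA-labelled library, against 0.042% in the control. Its copy Gm5514 held 4 against 3 counts. In the same library the heart muscle markers were higher for 30 of 30 genes, and their part in the level of Ldhb was not tested.

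Pyruvate dehydrogenase feeds pyruvate to the mitochondrion. Pdha1, a catalytic subunit of it (chromosome X, 160122209 to 160138413, minus strand), stood at 44.9 against 35.7 FPKM with a ratio of counts of 1.26 (1.18 to 1.33). On the opposite strand it overlaps Map3k15, with 628 against 432 counts. Pdk1, the kinase that switches the complex off and a HIF target, stood at 3.81 against 3.02 FPKM (1.26, 1.10 to 1.45). Of 11 other measured genes, of the complex, its kinases and phosphatases and of malic enzyme, 10 were above 0, against 66.9% of all genes, but 5 exceeded the median of all genes. None reached 2-fold, and the list median of 0.10 was close to the 0.11 of all genes. Dld, the shared dihydrolipoamide dehydrogenase, stood at 25.3 against 16.8 FPKM (1.5, 1.38 to 1.64) and Pdhb at 36.6 against 30.2 FPKM, while Pdk3 was level at 19.7 against 19.9 FPKM. Dlat, the acetyl-transferring subunit, named after its value was seen, stood at 17.3 against 13.3 FPKM. Transcripts of Pdha1, Dld and Pdhb had a GC content of 45.5%, 40.6% and 46.4%, below the 50.3% median of all measured genes. Adjusted for the trend of the difference with GC content, Pdha1 had 0.19 in place of 0.32, Dld 0.34 in place of 0.56 and Pdhb 0.16 in place of 0.27 on the log2 scale.

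Pentose phosphate genes were close to level except for Pgls and Tkt. G6pdx, which opens the oxidative branch and makes NADPH, stood at 75.5 against 74.1 FPKM. Pgd, the other NADPH-forming enzyme, stood at 52.7 against 51.9 FPKM. Pgls, the lactonase between them, was lower, at 25.9 against 32.4 FPKM with a ratio of counts of 0.80 (0.75 to 0.86). It overlaps Fam129c on the same strand, which held 83 against 67 counts. Tkt (transketolase) of the non-oxidative branch stood at 110 against 124 FPKM (0.89, 0.86 to 0.91), while Taldo1 (transaldolase) stood at 176 against 170 FPKM and Rpia, which forms ribose 5-phosphate, at 4.44 against 4.07 FPKM. G6pdx, Pgd, Taldo1 and Rpia lay above 0 but below the median of all genes, so 0 of 6 members exceeded it. Against 66.9% of all genes, 6 of 9 other measured genes of the pathway (66.7%) were above 0, with a median of 0.16. Among these Rpe, the epimerase, stood at 10.6 against 6.93 FPKM, Prps1, which makes the nucleotide precursor PRPP, at 48.9 against 40.0 FPKM, and Shpk at 4.23 against 4.94 FPKM.

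Of the 8 hypoxia members, 6 were higher, Ndrg1 was slightly lower and Egln3 had 0 counts. On log2(FPKM + 1) all 7 measured ones stayed within 1.5-fold, and 66.9% of all genes were above 0 as well. Hif1a, the regulated alpha subunit of HIF (chromosome 12, 73901375 to 73947530, plus strand), stood at 11.5 against 7.91 FPKM, from 4176 against 2837 counts. Its ratio of counts was 1.46 (1.32 to 1.61). Gm15283, which lies over it on the opposite strand, held 13 against 10 counts. Egln1, the main prolyl hydroxylase that marks the HIF alpha subunit and is itself a HIF target, stood at 4.83 against 3.74 FPKM (1.29, 1.07 to 1.56). Bnip3, a mitophagy receptor, stood at 13.0 against 10.1 FPKM (1.29, 1.12 to 1.49).

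Vegfa, Adm and Ankrd37 rest on fewer counts than these, and Ndrg1 on more. Vegfa, the angiogenic growth factor, had 3.56 against 2.85 FPKM (ratio of counts 1.25, 1.03 to 1.53). Adm, the vasodilator peptide adrenomedullin, stood at 5.07 against 3.63 FPKM (1.39, 1.05 to 1.84). Ankrd37, an ankyrin repeat protein, stood at 1.80 against 1.08 FPKM from 173 against 103 counts, and its interval of 0.98 to 2.78 included 1. Ndrg1, a stress-response gene and the most abundant of the group, stood at 59.4 against 62.4 FPKM (0.95, 0.92 to 0.99). The same library held more counts on markers of heart muscle, red blood cells and fibroblasts, and their part in these differences was not tested.

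Other genes of the HIF system did not share one direction. Of 11 further measured genes of HIF subunits and oxygen sensing, 8 (72.7%) were above 0, against 66.9% of all genes. None of the 11 reached 2-fold, and their median was 0.093. Vhl, which recruits hydroxylated HIF to its ubiquitin ligase, had 7.72 against 10.1 FPKM (ratio of counts 0.765, 0.663 to 0.879), whereas Cul2, the scaffold of that ligase, stood at 4.63 against 2.83 FPKM (1.63, 1.35 to 1.97). Elob, an adaptor subunit of the ligase, stood at 51.7 against 54.0 FPKM. Of 33 other measured HIF targets, 18 (54.5%) were above 0, against 66.9% of all genes, and the median was 0.023, below that of all genes. Mif, the most abundant, stood at 1431 against 1647 FPKM. Tpd52 was lowest at 5.63 against 12.1 FPKM. Epo was listed at 15.7 FPKM against 0, in an entry that shares its strand and some of its bases with Gnb2. Epo thus reached the minimum mean only through the siRNA-labelled library. Slc2a1, the glucose transporter GLUT1, stood at 48.1 against 55.4 FPKM, and Ero1l, an oxidoreductase of the endoplasmic reticulum, at 39.9 against 26.2 FPKM, both named after their values were seen.

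Most genes next to the pathway stayed within 2-fold. Of 15 other measured genes listed under glycolysis and gluconeogenesis, 10 (66.7%) were above 0, against 66.9% of all genes. The list median was 0.044 against 0.11 over all genes. Only 1 of the 15, against 1.18% of all genes, was at least 2-fold higher. The 1 past 2-fold was Pgam2, the muscle phosphoglycerate mutase, at 3.01 against 0.84 FPKM from 155 against 43 counts (ratio of counts 3.57, 1.76 to 7.60). Pgam2 reached the minimum mean only through the siRNA-labelled library. Heart muscle markers were higher in the same library for 30 of 30 genes, and their part in the level of Pgam2 was not tested. Eno3, the muscle enolase, named after its value was seen, was not higher, at 19.8 against 21.5 FPKM. Pcx, pyruvate carboxylase, was lowest of the list at 10.6 against 12.7 FPKM. Most abundant of the list was Pgam5, a protein phosphatase despite its name and not a glycolytic enzyme, at 40.0 against 38.9 FPKM. Of 14 transporters of glucose, lactate and pyruvate and their partners, 8 (57.1%) were above 0, against 66.9% of all genes, and the median was 0.043. Bsg (basigin), the partner of the lactate carriers, stood at 456 against 417 FPKM, the lactate carrier Slc16a1 at 20.2 against 14.6 FPKM and Slc37a2, a sugar phosphate exchanger, at 5.81 against 8.96 FPKM.

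**Figure D4:**
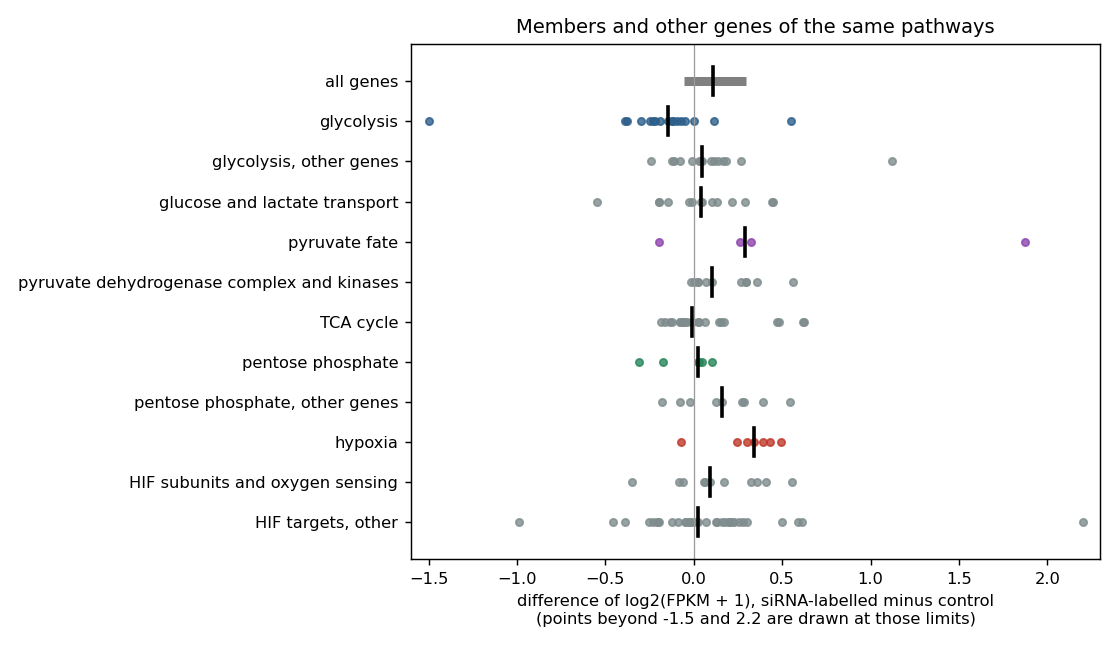
The log2(FPKM + 1) difference, control subtracted from siRNA-labelled, of each measured gene (points, drawn at the limits of the axis beyond -1.5 and 2.2) with the list median (black bar), for the 4 groups of members and 7 lists of other genes of the same pathways; the grey bar is the middle 50% of all measured genes. The hypoxia members have a median of 0.34 but the other HIF targets one of 0.023, and the glycolysis members one of -0.14 against 0.044 for the other genes listed under glycolysis.

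The differences varied with both the level and the GC content of the transcripts. Across the 34 members, Spearman's rho of the difference was -0.60 with the GC content of the longest transcript and -0.74 with mean FPKM, as a description of points that share 2 libraries. Over all measured genes these values were -0.46 and -0.22. The 11 members with a mean of at least 100 FPKM had a median of -0.22 and 1 above 0, while all 556 genes at that level had a median of -0.085 and 33.1% above 0. The 15 members under 20 FPKM had a median of 0.26, against 0.14 for all genes under 20 FPKM.

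The groups of members also differed in GC content. The glycolysis members had a median GC content of 53.5%, and all genes in the middle 50% of their range had a median difference of 0.0085, against -0.14 for the members. For the hypoxia members the median GC content was 50.7%, and the corresponding genes had a median of 0.14 against 0.34. Hif1a and Bnip3 were the members with the lowest GC content, 41.3% and 41.6%. After adjustment for the trend with GC content, the difference of Hif1a was 0.28 in place of 0.49, that of Bnip3 0.13 in place of 0.34, and that of Pfkfb3 0.57 in place of 0.55. The adjusted median was -0.071 for glycolysis and 0.28 for hypoxia.

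**Figure D5:**
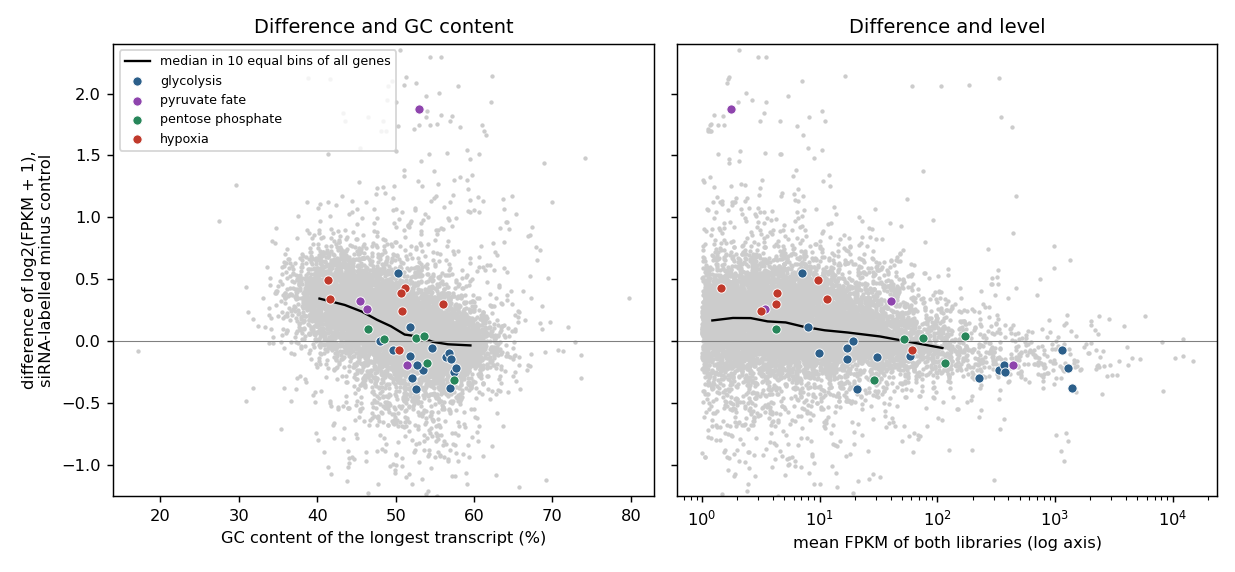
The log2(FPKM + 1) difference, control subtracted from siRNA-labelled, against the GC content of the longest transcript (left) and mean FPKM on a log axis (right), for all measured genes (grey), their median in 10 equal bins (line) and the members (coloured by role). Both lines end lower on the right than they begin on the left, the members of at least 100 FPKM lie below 0 with 1 exception, and Eno1b at -2.96 and some other genes lie outside the plotted range.

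HIF binds DNA at a short core, ACGTG or GCGTG. The 250 bases before each listed start of a gene were searched for it on both strands, with CACGTG counted on each strand. A gene with several starts was given its window with the most matches. RefSeq promoter windows (GRCm38.p6) were matched by symbol for 33 of 35 members, without Eno1b and Ndrg1. At least 1 match was found for 31 of these 33 genes, or 93.9%, against 41.5% of all 27025 genes with windows, measured here or not. More windows per gene raise such a share, and there were 48 windows for the 33 members against 32851 for the 27025 genes. The member windows had a median GC content of 60.0% against 52.4% for all windows. Among windows in the middle 50% of the members' GC range, 52.4% held a match, against 81.3% of the 48 member windows. The match did not separate the directions. It was found for 16 of 16 members above 0 and for 14 of 16 at or below 0. Windows are shown for Bnip3, Ankrd37 and Pfkfb3, which were higher, and for Ldha, which was lower with as many matches as Bnip3. They lie at chr7:138909507-138909756 (minus strand), chr8:45999851-46000100 (minus strand), chr2:11502091-11502340 (minus strand) and chr7:46845554-46845803 (plus strand), and capitals mark the matches.

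Bnip3: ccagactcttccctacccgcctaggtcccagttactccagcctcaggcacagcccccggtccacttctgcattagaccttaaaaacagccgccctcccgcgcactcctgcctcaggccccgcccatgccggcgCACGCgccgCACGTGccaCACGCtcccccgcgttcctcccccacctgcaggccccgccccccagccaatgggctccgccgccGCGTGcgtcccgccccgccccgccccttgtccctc

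Ankrd37: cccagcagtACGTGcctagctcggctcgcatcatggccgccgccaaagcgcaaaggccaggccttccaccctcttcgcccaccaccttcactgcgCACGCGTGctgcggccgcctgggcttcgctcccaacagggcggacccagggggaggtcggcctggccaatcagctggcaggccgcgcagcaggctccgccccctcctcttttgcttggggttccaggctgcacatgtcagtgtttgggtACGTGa

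Pfkfb3: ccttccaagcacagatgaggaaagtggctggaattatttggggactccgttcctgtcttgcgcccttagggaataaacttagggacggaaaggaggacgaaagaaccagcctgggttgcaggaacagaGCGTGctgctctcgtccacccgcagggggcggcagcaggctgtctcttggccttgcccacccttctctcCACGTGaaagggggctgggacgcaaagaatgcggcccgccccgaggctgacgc

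Ldha: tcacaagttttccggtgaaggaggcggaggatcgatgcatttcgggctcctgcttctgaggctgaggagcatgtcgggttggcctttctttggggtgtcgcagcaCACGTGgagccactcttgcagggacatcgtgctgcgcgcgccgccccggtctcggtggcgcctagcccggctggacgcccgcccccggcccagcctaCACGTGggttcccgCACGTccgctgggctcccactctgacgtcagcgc

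Bnip3 and Ldha each held 5 matches, Ankrd37 4 and Pfkfb3 3. Pfkfb3 and Ldha each had another window, with 1 match. For Pfkfb3 that other window lies at the start of the gene entry, and the one shown lies inside the entry. Both windows of Ldha lie inside its entry, which starts at 46841475. A match describes these letters and does not show that HIF was bound.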

How the data were processed

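FPKM values and whole-number estimated counts were deposited by the authors in a gene table with 1 column of each per library. HISAT2 2.0 and StringTie 1.3.0 appear in the submitters' processing notes. Build, annotation and strandedness remain not given in the sources used here. The 36 member identifiers were all found in GENCODE vM21 (GRCm38), 31 with identical coordinates; Ankrd37, Gapdh, Pfkl, Pfkm and Pgd differed. Coordinates of genes are those of the table. The deposited counts piled up on multiples of 4 (45.1% and 42.7% of counts from 1 to 20), so they were divided by 4 to approximate read pairs for the intervals. These are exact Clopper-Pearson limits conditional on the sum of both libraries, at the 95% level. Read pairs carry no molecular identifiers and are not independent molecules.

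Differences of log2(FPKM + 1) were taken where the mean of both libraries reached 1 FPKM. No test was run with 1 library per group, and genes were counted by size. Aldoa was represented by its more abundant entry. Columns left unmatched numbered 0. Near-identical copies were found with blastn 2.17.0 from the coding sequence of the principal transcript. GC content was adjusted by lowess with a span of 0.3. All members are named, and of each list of other genes the most abundant, the highest and the lowest. The members and lists were chosen with earlier results of these data known. The 2-fold rule and the intervals were also run on simulated counts that held counting error only. Such counts have no spread between libraries, no shared reads and no GC trend, so they cannot check for these. Tools were Python 3.11.15 with scipy 1.17.1, biopython 1.88, pandas 2.3.3, statsmodels 0.14.6, matplotlib 3.10.9 and numpy 2.4.6.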

Additional observations from a re-analysis of the deposited data

How the results depend on the processing

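The alternatives were pseudocounts of 0.1 and 5, no minimum or a mean of at least 5 FPKM, the median over all genes set to 0, counts scaled to the library total, a limit of 1.5-fold, and leaving out the 14 members with copies or same-strand overlaps. The GC adjustment, summing copies and leaving out Eno1b were added after the data were seen. The number of members at least 2-fold higher was 0 in place of 1 with a pseudocount of 5, at a mean of at least 5 FPKM and without sharing members, the first because it shrinks the low gene Ldhb and the others because they leave it out. The number at least 2-fold lower was 0 without sharing members and with copies summed, since both drop Eno1b as a separate gene. The number above 0 was 9 in place of 16 at a mean of at least 5 FPKM, where fewer genes are counted. With the median over all genes set to 0, the medians were -0.17 for all members, -0.25 for glycolysis and -0.085 for the pentose phosphate members, and Eno1 and Eno1b summed had -1.31. Counts scaled to the total gave -0.70 for that sum. The median over the members was 0.064 without sharing members, and that of glycolysis -0.071 after the GC adjustment. The hypoxia median stayed between 0.17 and 0.37 under the alternatives run for it. Of the single members, 5 changed sign with the median set to 0 (G6pdx, Pfkp, Pgd, Rpia and Taldo1) and 6 after the GC adjustment (Hk1, Hk3, Pfkm, Pfkp, Pgd and Rpia), all of them small differences. No paired analysis was possible because each group has 1 library. Depth limits Ldhb and Ankrd37 most.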

Other observations

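The tricarboxylic acid cycle is the mitochondrial route that follows pyruvate dehydrogenase. Of its 22 measured genes, 10 (45.5%) were above 0 and 12 below, against 66.9% of all genes above 0. The list median was -0.0089 against 0.11 over all genes. Subunits of one enzyme were not all higher or all lower. The ATP- and GTP-forming subunit genes of succinyl-CoA synthetase were higher, Sucla2 at 6.31 against 3.75 FPKM (ratio of counts 1.68, 1.42 to 1.98) and Suclg2 at 18.1 against 11.5 FPKM (1.58, 1.44 to 1.72), while Suclg1, the subunit they share, was level at 15.5 against 15.6 FPKM. Idh3a, the catalytic subunit of the NAD-dependent isocitrate dehydrogenase, stood at 16.5 against 11.5 FPKM. Its other subunits were Idh3b at 80.7 against 79.0 FPKM and Idh3g, a regulatory subunit, at 53.5 against 58.3 FPKM. Mdh2, the mitochondrial malate dehydrogenase and the most abundant gene of the list, stood at 199 against 219 FPKM, and Aco1 was lowest at 9.55 against 11.0 FPKM. Transcripts of Sucla2, Suclg2 and Idh3a had a GC content of 43.2%, 44.4% and 46.9%, below the 50.3% median of all measured genes, and after adjustment for the trend with GC content their differences were 0.44 in place of 0.62, 0.46 in place of 0.62 and 0.39 in place of 0.48. Suclg1, Idh3b and Idh3g had -0.15 in place of -0.0090, -0.050 in place of 0.031 and -0.093 in place of -0.12. Suclg1, Suclg2, Idh3a, Idh3b and Idh3g were named after their values were seen.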
